A study of Mus musculus with 12 samples.

Results

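The genes described here encode the enzymes and transporters that carry glucose to pyruvate and lactate and through the pentose phosphate pathway, in splenic CD4+ T cells of mice profiled on 12 Mouse Gene 2.0 ST arrays. The members were chosen by name from what the pathway is known to contain, with earlier results of these data known. Of the 38 listed genes, 35 had a row in the deposited table among the 23740 genes tested. Gapdh, Eno1 and Mpc1 were not analysed here. Cells came from Lck-Cre+;Ikzf-/- mice, in which Cre is driven by the T-lineage promoter Lck and the Ikaros gene is deleted (Cre+), or from Lck-Cre-;Ikzf+/+ mice without Cre and with intact Ikaros (Cre-). The 4 groups were Cre+ cells activated for 24 h by anti-CD3 fixed to the plate with anti-CD28 in solution, Cre- cells activated the same way, Cre+ cells at baseline (0 h) and Cre- cells at baseline, with 3 arrays each. No group carried Cre with intact Ikaros, and none was cultured for 24 h without the antibodies, so Cre cannot be told apart from the Ikaros deletion, nor the antibodies from the time in culture. The labels do not say whether the arrays of a group came from separate mice, so p-values measure only the spread between these arrays, which may be technical. Neither the age nor the sex of the mice is given in the sources used here.

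Resting T cells take up little glucose and oxidise most of the pyruvate they make. Engagement of the T cell receptor with CD28 is known to raise glucose uptake and to send much of the pyruvate to lactate even in the presence of oxygen, while the pentose phosphate pathway supplies NADPH and ribose for growth. Myc and the hypoxia-inducible factor HIF-1 are known activators of many of these genes, and Ikaros is a zinc-finger DNA-binding protein of the lymphoid lineage.

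All expression values below are log2 values that the authors made by robust multi-array averaging (RMA), a method that corrects background, normalises arrays to each other and summarises the probes of a row, and a difference of 1 is 2-fold. An array level depends on the probes, so levels are set against each other only within a gene. Ikzf1, which encodes Ikaros, had 10.14, 9.93 and 9.89 in activated Cre+ cells, against 10.03, 10.22 and 10.08 in activated Cre- cells, and 10.66, 10.29 and 10.14 in baseline Cre+ cells, against 10.54, 10.52 and 10.54 in baseline Cre- cells. Its difference between genotypes passed in neither state (limma, adjusted p = 0.994 after activation and 0.972 at baseline). The sources used here do not place its probes relative to the deleted part. The row therefore does not check the deletion, and the genotypes are used as labelled.

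The 8 markers of CD4 T cells (Cd3e, Cd3d, Cd3g, Cd4, Lck, Cd5, Cd28, Lat) averaged 9.87 to 10.23 in activated Cre+ cells and 9.89 to 10.13 in activated Cre- cells, against 10.53 to 10.61 in baseline Cre+ cells and 10.39 to 10.48 in baseline Cre- cells. On activation 6 of the 8 fell in Cre+ cells and 3 of 8 in Cre- cells (median log2 changes -0.57 and -0.48), and none rose. Markers of other cells moved too. The 12 B cell markers averaged 7.06, 6.13 and 7.72 in activated Cre+ cells and 5.52, 5.94 and 7.01 in activated Cre- cells, against 8.49 to 8.60 in baseline Cre+ cells and 8.63 to 8.90 in baseline Cre- cells, and 7 of 12 fell in Cre+ cells and 11 of 12 in Cre- cells on activation. The 9 measured myeloid markers averaged 3.75 to 3.86 in activated Cre+ cells and 3.68 to 3.81 in activated Cre- cells, against 4.66 to 5.33 in baseline Cre+ cells and 4.80 to 5.23 in baseline Cre- cells. In such bulk RNA, fewer cells of a type and less RNA per cell cannot be told apart, and the part of these cells in the changes of the glycolytic genes was not tested. Of 5 natural killer cell markers, 1 rose and 2 fell in Cre+ cells and 3 fell in Cre- cells. Erythroid markers averaged 2.85 to 3.13 on all arrays.

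Activated array 3 stood apart from arrays 1 and 2 in both genotypes. A list of 15 cell cycle genes averaged 7.19, 6.58 and 8.70 in activated Cre+ cells and 6.61, 6.59 and 9.06 in activated Cre- cells, against 6.43 to 6.62 in baseline Cre+ cells and 6.51 to 6.64 in baseline Cre- cells. The 35 members averaged 7.19, 7.06 and 7.22 in activated Cre+ cells and 7.23, 7.21 and 7.46 in activated Cre- cells, against 6.57 to 6.66 in baseline Cre+ cells and 6.61 to 6.73 in baseline Cre- cells.

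**Figure D1:**
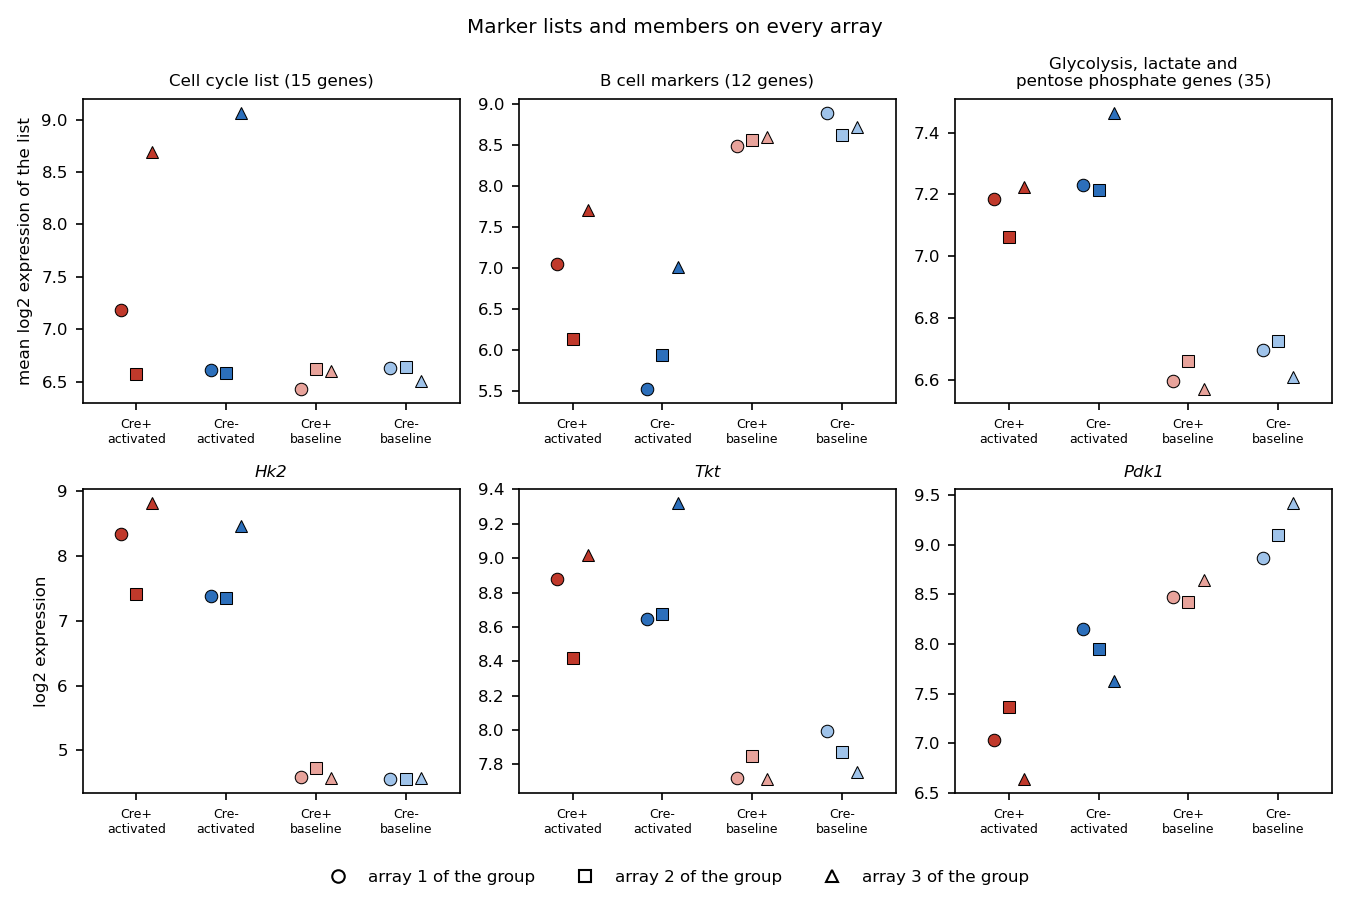
Top row, mean log2 expression on each of the 12 arrays, by group, of 15 cell cycle genes, 12 B cell markers and the 35 members; bottom row, log2 expression of Hk2, Tkt and Pdk1. The cell cycle mean reaches 8.70 and 9.06 on the activated arrays numbered 3, B cell markers are lower on every activated array than on any baseline array, and the members are higher on every activated array.

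Much of the pathway was higher after activation in both genotypes. Of the 35 members, 20 passed the test in Cre+ cells (limma, adjusted p under 0.05 over all genes tested), 17 higher and 3 lower, and 17 passed in Cre- cells, 16 higher and 1 lower. The members that passed were 57.1% of the 35 in Cre+ cells, where 20.8% of all genes passed (10.2% higher and 10.6% lower), and 48.6% in Cre- cells, where 18.6% of all genes passed (9.44% higher and 9.14% lower). These shares of all genes include dim rows. Of the 9727 genes with a mean of at least 5, fitted alone, 46.3% passed in Cre+ cells and 43.9% in Cre- cells. The members' shares above come from the fit of all genes, so they are not like for like with these. Pfkm, Aldoa, Aldoc, Pgk1, Pgam1, Eno2 and Pfkfb4 have means under 5 and were not in the smaller fit. In that fit Slc2a3, Pgls, Pgd and Rpia were called in Cre- cells as well. The members were not matched to genes of like level. Their list was drawn up with earlier results of these data known, so the shares are not independent evidence. The median log2 change of the members was 0.51 in Cre+ cells, beside -0.02 for all genes, and 0.39 in Cre- cells, beside -0.004 for all genes. With each array centred on its median, the calls over all genes in Cre- cells were 2867 higher and 1716 lower, against 2241 and 2171 on the deposited scale, and those in Cre+ cells 2741 higher and 2084 lower, against 2429 and 2513. All 17 members that passed in Cre- cells also passed in Cre+ cells in the same direction. Slc2a3, Pdk2 and Pgd passed in Cre+ cells and not in Cre- cells, but the difference between the genotypes' responses passed for none of these 3 (limma, adjusted p = 1 each).

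**Figure D2:**
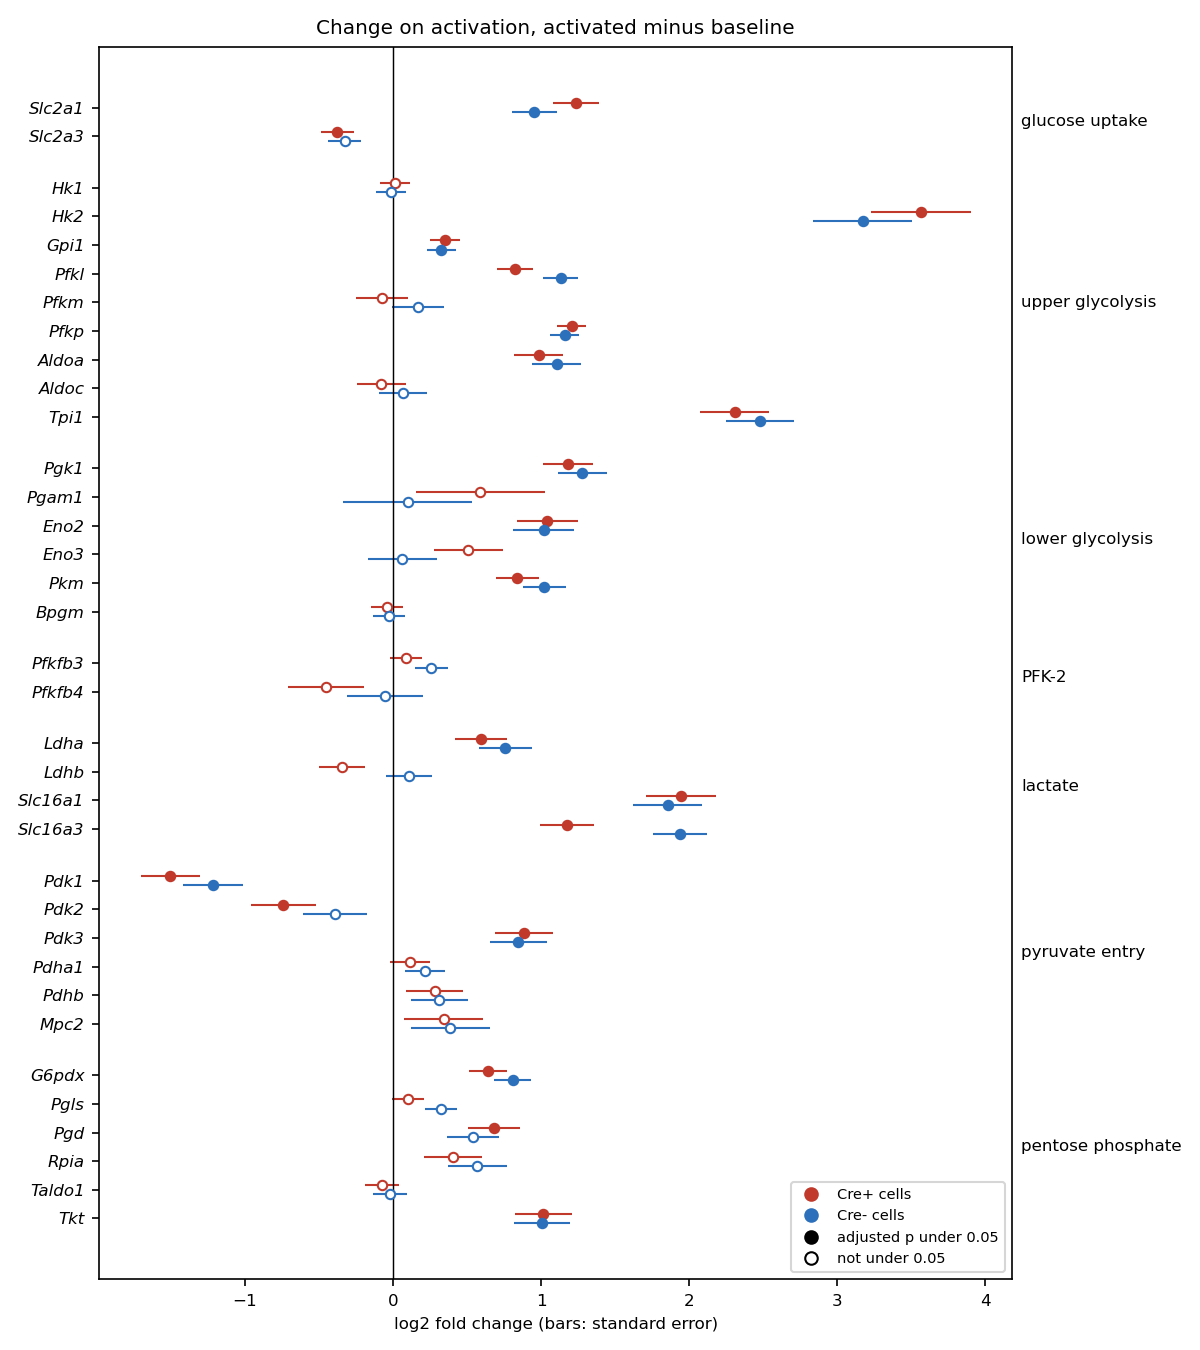
Log2 change on activation of each of the 35 members in Cre+ cells and in Cre- cells, with bars of 1 standard error from limma (3 activated and 3 baseline arrays per genotype), by step of the pathway. Filled points passed at an adjusted p under 0.05. Hk2 lies farthest to the right in both genotypes, at 3.57 in Cre+ cells and 3.17 in Cre- cells, and Pdk1 lies farthest to the left, at -1.50 in Cre+ cells and -1.22 in Cre- cells.

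At the entry of glucose, the transporter genes moved in opposite directions in Cre+ cells. Slc2a1, which encodes the glucose transporter GLUT1, had 9.001, 8.88 and 9.12 in activated Cre+ cells, against 7.81, 7.98 and 7.50 at baseline. In Cre- cells it had 8.97, 8.95 and 9.17 after activation, against 8.24, 8.19 and 7.79 at baseline. The activated and baseline arrays did not overlap in either genotype, and the gene rose 2.35-fold in Cre+ cells (log2 change 1.24, SE 0.15, limma adjusted p = 0.000226) and 1.94-fold in Cre- cells (0.96, SE 0.15, adjusted p = 0.00135). Slc2a3, for the transporter GLUT3, had 7.27, 7.40 and 7.04 in activated Cre+ cells, against 7.59, 7.62 and 7.62 at baseline, and 7.56, 7.36 and 7.59 in activated Cre- cells, against 7.78, 7.90 and 7.79 at baseline. Again no array overlapped, with the activated arrays lower: Slc2a3 fell in Cre+ cells (log2 change -0.38, SE 0.11, limma adjusted p = 0.0318), while its change of -0.32 in Cre- cells did not pass (adjusted p = 0.0637) except in 6 of 22 alternatives, among them leaving out Cre+ activated array 2 or 3 (-0.32, adjusted p = 0.0498 and 0.0433). The Cre+ call was lost when any 1 of the Cre+ baseline arrays or Cre+ activated array 1 or 3 was left out, where the log2 change lay between -0.39 and -0.28 (adjusted p 0.071 to 0.136).

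Hexokinase traps glucose in the cell as glucose phosphate, and its 2 genes on the list behaved differently. Hk2, the inducible form, had 8.35, 7.42 and 8.82 in activated Cre+ cells, against 4.59, 4.73 and 4.57 at baseline. In activated Cre- cells it had 7.38, 7.36 and 8.47, against 4.56, 4.55 and 4.58 at baseline. The baseline arrays of both genotypes lay close together, and every activated array was far above them. Hk2 rose 11.8-fold in Cre+ cells (log2 change 3.57, SE 0.34, limma adjusted p = 2.87e-05) and 9.02-fold in Cre- cells (3.17, SE 0.34, adjusted p = 8.16e-05). Hk1, the form present in most cells, averaged 8.29 ± 0.15 in activated Cre+ cells and 8.27 ± 0.06 in baseline Cre+ cells, and 8.22 ± 0.06 in activated Cre- cells and 8.23 ± 0.06 in baseline Cre- cells (SD, n = 3 each), and did not pass in either genotype (limma, adjusted p = 0.949 in Cre+ cells and 0.956 in Cre- cells).

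**Figure D3:**
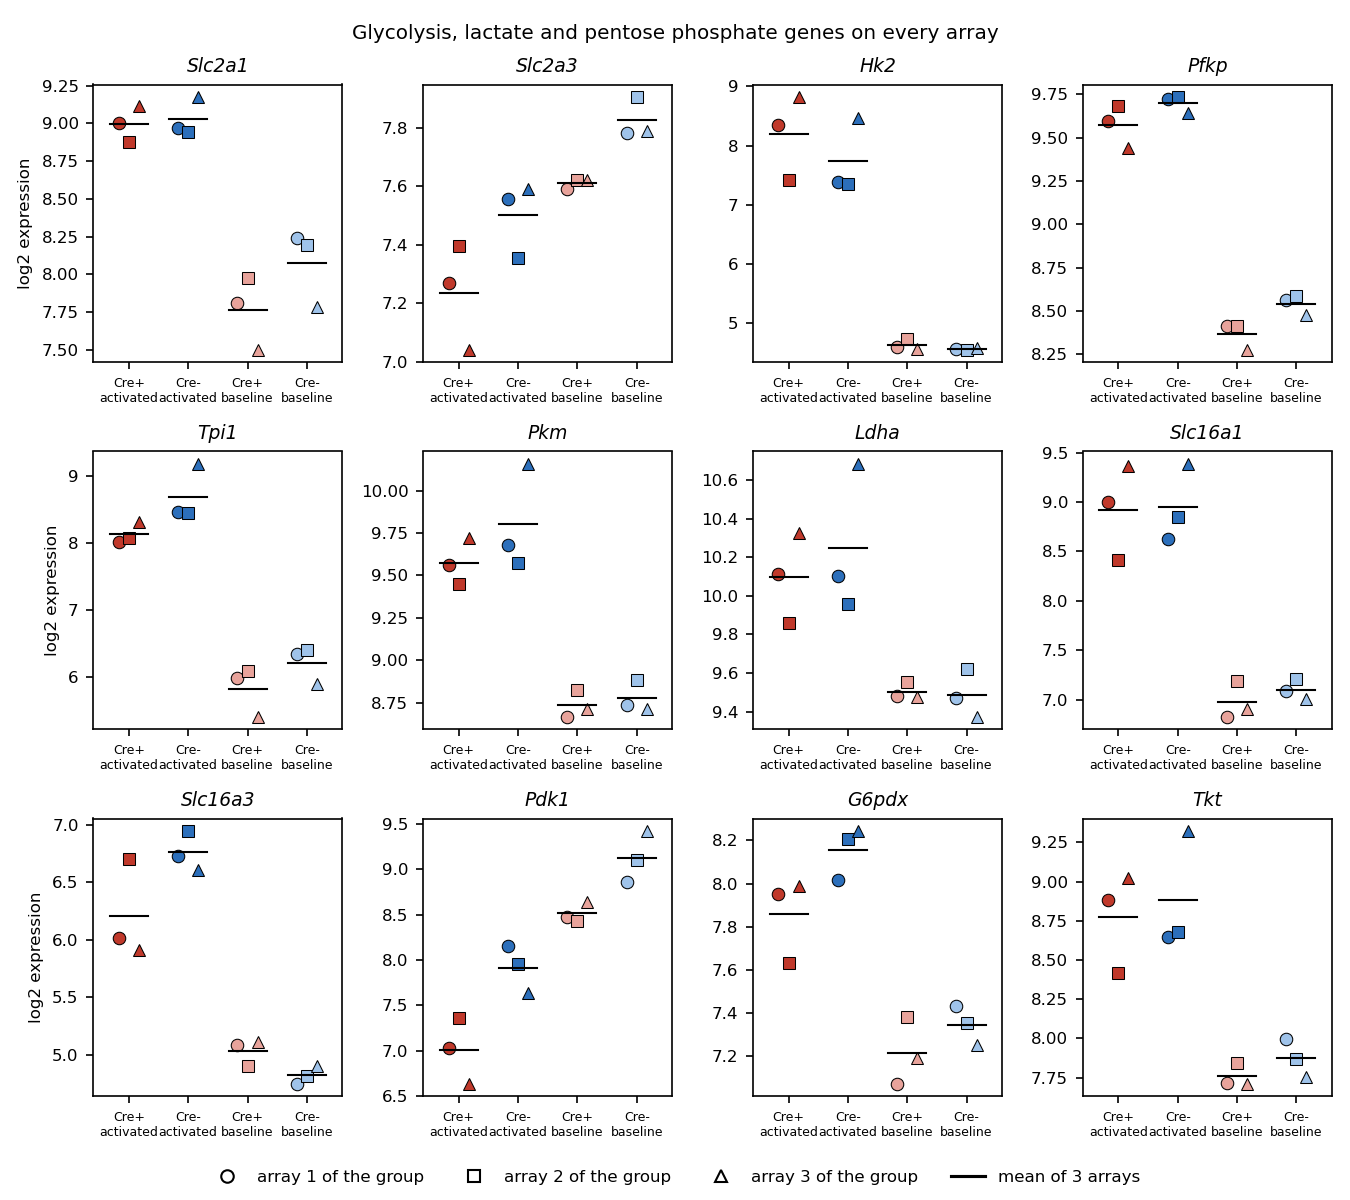
Log2 expression of 12 members on each of the 12 arrays (points), by group, with the group mean (line); each panel has its own axis. The baseline points of Hk2 sit between 4.55 and 4.73 and its activated points between 7.36 and 8.82, while Pdk1 lies lower after activation in both genotypes.

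Gpi1, which turns glucose phosphate into fructose phosphate, changed least among the members that rose: its log2 change was 0.35 in Cre+ cells (SE 0.10, limma adjusted p = 0.0257) and 0.33 in Cre- cells (SE 0.10, adjusted p = 0.0398). In Cre- cells its call was lost when any 1 of the Cre- baseline arrays, Cre- activated array 1 or 3 or Cre+ baseline array 1 was left out (log2 changes 0.28 to 0.35, adjusted p 0.056 to 0.137), and in Cre+ cells without Cre+ baseline array 1 or 2 or Cre+ activated array 2 or 3 (0.30 to 0.36, adjusted p 0.064 to 0.097). Phosphofructokinase commits the sugar to glycolysis, and its platelet-type subunit gene Pfkp gave the smallest adjusted p of the 35 members. Pfkp had 9.60, 9.68 and 9.44 in activated Cre+ cells, against 8.41, 8.41 and 8.28 at baseline. It had 9.73, 9.73 and 9.64 in activated Cre- cells, against 8.56, 8.59 and 8.48 at baseline. The activated arrays stood well above the baseline arrays with little spread in either group, a 2.31-fold rise in Cre+ cells (log2 change 1.21, SE 0.10, limma adjusted p = 9.3e-06) and a 2.23-fold rise in Cre- cells (1.16, SE 0.10, adjusted p = 1.34e-05). The liver-type subunit gene Pfkl rose by 0.83 in Cre+ cells and by 1.13 in Cre- cells (limma adjusted p = 0.000671 and 8.33e-05), and the muscle-type subunit gene Pfkm did not pass (log2 changes -0.07 in Cre+ cells and 0.17 in Cre- cells). Pfkfb3 and Pfkfb4, whose enzymes make and break the fructose bisphosphate that activates phosphofructokinase, did not pass in either genotype: Pfkfb3 changed by 0.09 in Cre+ cells and 0.26 in Cre- cells, and Pfkfb4 by -0.45 and -0.055.

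Further along the pathway the largest changes were those of Tpi1, which interconverts the 2 triose phosphates. Tpi1 had 8.02, 8.07 and 8.31 in activated Cre+ cells, against 5.98, 6.09 and 5.41 at baseline. In Cre- cells it had 8.45, 8.44 and 9.17 after activation, against 6.34, 6.40 and 5.89 at baseline. No activated array came near a baseline array, and Tpi1 rose 4.95-fold in Cre+ cells (log2 change 2.31, SE 0.23, limma adjusted p = 4.66e-05) and 5.57-fold in Cre- cells (2.48, SE 0.23, adjusted p = 3.48e-05). Pgk1, the X-linked phosphoglycerate kinase that makes ATP, had 4.85, 5.39 and 5.52 in activated Cre+ cells, against 3.82, 4.12 and 4.27 at baseline, and 5.54, 5.36 and 5.54 in activated Cre- cells, against 4.20, 4.21 and 4.18 at baseline. It rose 2.27-fold and 2.43-fold (limma adjusted p = 0.000543 in Cre+ cells and 0.000351 in Cre- cells), from a row that lay below the array median on 4 of the 12 arrays. Aldoa, the aldolase that splits the hexose, rose by 0.98 in Cre+ cells and 1.10 in Cre- cells on the log2 scale (limma adjusted p = 0.00163 and 0.000866), although its row lay below the array median on 10 of the 12 arrays. Its isozyme gene Aldoc did not pass, with changes of -0.08 in Cre+ cells and 0.07 in Cre- cells.

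Among the enolase genes, Eno2 rose 2.06-fold in Cre+ cells and 2.02-fold in Cre- cells (limma adjusted p = 0.00423 and 0.00543). Its row lay below the array median on 4 of the 12 arrays. Eno3 did not pass: it had 7.78, 7.17 and 8.42 in activated Cre+ cells, a wide spread around a baseline mean of 7.28 ± 0.08, and averaged 7.36 ± 0.12 in activated Cre- cells and 7.29 ± 0.04 at baseline (SD, n = 3 each). Without Cre+ activated array 2, Eno3 was called higher in Cre+ cells (log2 change 0.82, adjusted p = 0.00492). Pgam1, a phosphoglycerate mutase, was the noisiest member. It averaged 3.37 ± 0.71 in activated Cre+ cells and 2.78 ± 0.20 at baseline, and 3.14 ± 0.87 in activated Cre- cells and 3.04 ± 0.53 at baseline (SD, n = 3 each), below the array median on 11 of 12 arrays. Bpgm, which makes bisphosphoglycerate, a regulator of haemoglobin in red cells, changed by -0.04 in Cre+ cells and -0.03 in Cre- cells and did not pass. Pkm, pyruvate kinase, had 9.56, 9.45 and 9.72 in activated Cre+ cells, against 8.67, 8.82 and 8.71 at baseline, and 9.68, 9.57 and 10.16 in activated Cre- cells, against 8.74, 8.89 and 8.72 at baseline. No activated array overlapped a baseline one, and Pkm rose 1.79-fold in Cre+ cells and 2.03-fold in Cre- cells (limma adjusted p = 0.00195 and 0.000625). The single row of the gene does not tell its splice forms apart.

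At the lactate end, the gene for lactate dehydrogenase A rose and that for lactate dehydrogenase B did not pass. Ldha, whose subunit favours making lactate, had 10.12, 9.86 and 10.33 in activated Cre+ cells, against 9.48, 9.55 and 9.48 at baseline. In Cre- cells it had 10.10, 9.96 and 10.68 after activation, against 9.47, 9.62 and 9.37 at baseline. The groups did not overlap, and the rise was 1.51-fold in Cre+ cells (log2 change 0.60, SE 0.18, limma adjusted p = 0.0338) and 1.69-fold in Cre- cells (0.76, SE 0.18, adjusted p = 0.0114). The Cre+ call was lost when any 1 of the Cre+ baseline arrays or Cre+ activated array 1 or 3 was left out (log2 changes 0.48 to 0.62, adjusted p 0.074 to 0.134). Ldhb, whose subunit favours using lactate, changed by -0.34 in Cre+ cells and 0.11 in Cre- cells and did not pass (adjusted p = 0.158 and 0.72).

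Both genes for monocarboxylate transporters, which move lactate across the membrane, rose. Slc16a1 (MCT1) had 8.996, 8.41 and 9.36 in activated Cre+ cells, against 6.83, 7.19 and 6.91 at baseline, and 8.63, 8.85 and 9.38 in activated Cre- cells, against 7.09, 7.205 and 7.002 at baseline. Its rise was 3.86-fold in Cre+ cells and 3.62-fold in Cre- cells (log2 changes 1.95 and 1.85, SE 0.24 each, limma adjusted p = 0.000185 and 0.000293). Slc16a3 (MCT4, known as a lactate exporter of highly glycolytic cells) had 6.01, 6.71 and 5.91 in activated Cre+ cells, against 5.09, 4.90 and 5.11 at baseline. In Cre- cells it had 6.73, 6.94 and 6.61 after activation, against 4.75, 4.82 and 4.90 at baseline. All activated arrays were above all baseline arrays, with a rise of 2.25-fold in Cre+ cells (log2 change 1.17, SE 0.18, limma adjusted p = 0.001) and 3.83-fold in Cre- cells (1.94, SE 0.18, adjusted p = 3.64e-05). The difference between these responses, -0.76 (SE 0.26), was the only one of the 35 with an unadjusted p under 0.05 and did not pass (adjusted p = 0.889).

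The genes that control the entry of pyruvate into mitochondria did not move together. Pdk1, a kinase that switches off pyruvate dehydrogenase, had 7.03, 7.36 and 6.64 in activated Cre+ cells, against 8.48, 8.42 and 8.64 at baseline. In activated Cre- cells it had 8.15, 7.95 and 7.63, against 8.86, 9.10 and 9.42 at baseline. Every activated array was below every baseline array of its genotype, and Pdk1 fell 2.83-fold in Cre+ cells (log2 change -1.50, SE 0.20, limma adjusted p = 0.000363) and 2.32-fold in Cre- cells (-1.22, SE 0.20, adjusted p = 0.00154). With all 12 arrays it was the only member called lower in both genotypes. Slc2a3, lower on every activated array of both, was also called in both in some alternatives, such as with genes of a mean of at least 5 (adjusted p = 0.0335 in Cre- cells).

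Of the other kinases of the enzyme, Pdk3 had 7.47, 7.06 and 7.79 in activated Cre+ cells, against 6.62, 6.48 and 6.56 at baseline, and 7.20, 7.36 and 7.88 in activated Cre- cells, against 6.65, 6.65 and 6.60 at baseline. Pdk3 rose 1.85-fold in Cre+ cells and 1.80-fold in Cre- cells (limma adjusted p = 0.00715 and 0.00976), so kinase genes of the same enzyme changed in opposite directions. Pdk2 had 5.83, 6.12 and 5.41 in activated Cre+ cells, against 6.54, 6.53 and 6.50 at baseline, and fell (log2 change -0.74, SE 0.22, adjusted p = 0.0314). That call was lost when any 1 of the Cre+ baseline arrays or Cre+ activated array 1 or 3 was left out (log2 changes -0.76 to -0.55, adjusted p 0.076 to 0.130). In Cre- cells Pdk2 changed by -0.39 and did not pass. The pyruvate dehydrogenase subunit genes Pdha1 and Pdhb and the pyruvate carrier gene Mpc2 changed by 0.12 to 0.39 and did not pass in either genotype.

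In the oxidative arm of the pentose phosphate pathway, G6pdx, the X-linked enzyme that makes the first NADPH, had 7.95, 7.63 and 7.99 in activated Cre+ cells, against 7.07, 7.38 and 7.19 at baseline. In Cre- cells it had 8.02, 8.20 and 8.24 after activation, against 7.43, 7.35 and 7.25 at baseline. Its rise was 1.56-fold in Cre+ cells and 1.75-fold in Cre- cells (log2 changes 0.64 and 0.81, SE 0.13 each, limma adjusted p = 0.00405 and 0.00114). Pgd, which makes the next NADPH, had 8.88, 8.46 and 9.04 in activated Cre+ cells, against 8.10, 8.13 and 8.10 at baseline, and 8.57, 8.59 and 9.16 in activated Cre- cells, against 8.30, 8.23 and 8.17 at baseline. The arrays did not overlap in either genotype, but the call was made in Cre+ cells (log2 change 0.68, SE 0.17, adjusted p = 0.0159) and missed in Cre- cells (0.54, SE 0.17, adjusted p = 0.0501). The Cre+ call of Pgd was lost without Cre+ activated array 1 (log2 change 0.64, adjusted p = 0.0619) and without Cre+ activated array 3 (0.56, adjusted p = 0.0708). The Cre- call was gained in 9 of 22 alternatives, among them the replicate number as a block (adjusted p = 0.0403) and leaving out Cre+ activated array 2 or 3 or Cre- activated array 1 or 2 (log2 changes 0.54 to 0.64, adjusted p 0.025 to 0.047), so the contrast in calls between the genotypes depended on the setting. Pgls, which acts between G6pdx and Pgd, changed by 0.10 in Cre+ cells and 0.33 in Cre- cells and did not pass, but it was called in Cre- cells without Cre+ activated array 3 (0.33, adjusted p = 0.0444).

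In the non-oxidative arm, the transketolase gene Tkt rose and the transaldolase gene Taldo1 did not pass. Tkt had 8.88, 8.42 and 9.02 in activated Cre+ cells, against 7.72, 7.85 and 7.71 at baseline, and 8.65, 8.68 and 9.32 in activated Cre- cells, against 7.996, 7.87 and 7.76 at baseline. No arrays overlapped, and the rise was 2.02-fold in Cre+ cells and 2.01-fold in Cre- cells (limma adjusted p = 0.00325 and 0.00377). Taldo1 changed by -0.075 in Cre+ cells and -0.02 in Cre- cells, and Rpia, the ribose phosphate isomerase gene, by 0.40 and 0.57 without passing in Cre+ or Cre- cells (adjusted p = 0.19 and 0.0665). In Cre- cells Rpia was called in 5 of 22 alternatives, among them the replicate number as a block (adjusted p = 0.0224), without Cre+ activated array 2 (0.57, adjusted p = 0.0337) and without Cre- activated array 2 (0.70, adjusted p = 0.0484). In Cre+ cells it was called without Cre+ activated array 2 (0.60, adjusted p = 0.0397).

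Promoters are shown for 6 members with different changes on activation: Hk2 and Tpi1 rose most, Slc16a3, Slc2a1 and Ldha rose as genes of transport and lactate, and Pdk1 fell. Each is the 250 bases before a transcription start in RefSeq's mouse annotation (build GRCm38.p6), read on the gene's strand. Capitals mark ACGTG and GCGTG, the core letters that HIF is known to bind, on either strand (so CACGT and CACGC are the same letters on the other strand). CACGTG, the E-box that Myc is known to bind, holds ACGTG on both strands and counts on each.
Hk2 (chr6:82774455-82774704, minus strand): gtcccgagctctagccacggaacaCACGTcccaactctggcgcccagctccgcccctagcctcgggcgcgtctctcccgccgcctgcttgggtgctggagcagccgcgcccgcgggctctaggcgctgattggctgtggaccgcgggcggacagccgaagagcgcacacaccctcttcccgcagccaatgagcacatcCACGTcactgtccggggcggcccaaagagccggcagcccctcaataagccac
Slc16a3 (chr11:120948817-120949066, plus strand): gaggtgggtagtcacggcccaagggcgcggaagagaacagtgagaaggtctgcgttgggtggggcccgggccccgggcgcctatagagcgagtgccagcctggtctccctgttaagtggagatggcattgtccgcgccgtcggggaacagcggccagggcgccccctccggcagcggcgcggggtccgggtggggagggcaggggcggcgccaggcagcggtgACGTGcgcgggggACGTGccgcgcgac
Slc2a1 (chr4:119108495-119108744, plus strand): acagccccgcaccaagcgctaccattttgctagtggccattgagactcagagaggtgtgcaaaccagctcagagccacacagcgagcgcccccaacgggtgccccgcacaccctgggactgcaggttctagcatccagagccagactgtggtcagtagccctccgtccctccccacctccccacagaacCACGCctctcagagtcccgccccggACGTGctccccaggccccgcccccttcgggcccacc
Ldha (chr7:46845554-46845803, plus strand): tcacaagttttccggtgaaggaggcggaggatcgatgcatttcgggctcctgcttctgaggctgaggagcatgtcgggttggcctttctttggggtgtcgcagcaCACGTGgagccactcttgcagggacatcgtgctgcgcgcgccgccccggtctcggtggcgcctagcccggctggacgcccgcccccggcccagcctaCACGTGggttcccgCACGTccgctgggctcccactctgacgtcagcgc
Pdk1 (chr2:71872974-71873223, plus strand): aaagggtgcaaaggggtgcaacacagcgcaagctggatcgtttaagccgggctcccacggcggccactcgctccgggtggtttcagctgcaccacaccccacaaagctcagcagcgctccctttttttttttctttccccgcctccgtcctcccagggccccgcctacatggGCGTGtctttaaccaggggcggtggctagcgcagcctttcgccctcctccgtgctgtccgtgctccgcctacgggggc
Tpi1 (chr6:124814159-124814408, minus strand): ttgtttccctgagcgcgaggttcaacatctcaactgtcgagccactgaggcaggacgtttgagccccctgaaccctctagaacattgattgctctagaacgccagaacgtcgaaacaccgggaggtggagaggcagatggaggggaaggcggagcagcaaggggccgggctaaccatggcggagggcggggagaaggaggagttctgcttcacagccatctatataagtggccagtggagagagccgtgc

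Hk2, Slc16a3 and Slc2a1 each had 2 matches in these windows, Ldha had 5, of which 4 lie in a pair of E-boxes, Pdk1 had 1 and Tpi1 had none. For Ldha and Pdk1 the first of 2 listed promoters is shown. Of the 38 listed genes, 37 had promoters in the table, 53 in all, and Slc2a3 had none listed. ACGTG or GCGTG was present in 41 of 53 member promoters (77.4%), against 12679 of all 32851 promoters of the same length (38.6%). The member promoters also had a higher median GC content, 60.4% against 52.4%, and both motifs are rich in G and C. CACGTG was present in 9.43% of member promoters and 6.02% of all, and TGGGAA, the core letters Ikaros is known to bind, in 18.9% and 21.6%. These matches describe letters in these windows and say nothing of binding.

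Myc and Hif1a, the genes of the known activators named above, were also higher after activation. Only their RNA was measured, and their part in the changes of the members was not tested. Of the 4 genes listed as regulators (Ikzf1, Myc, Hif1a and Txnip), 2 rose and 2 fell in Cre- cells, and 2 rose and 1 fell in Cre+ cells. Ikzf1 was called lower in Cre- cells alone, with a mean of 10.11 after activation and 10.53 at baseline. In Cre+ cells, where it did not pass, its mean was also lower, 9.98 after activation and 10.36 at baseline. The difference between the genotypes' responses passed for none of the 4 regulators (log2 differences -0.08 to 0.05). Myc, which is known to drive the glycolytic programme of activated T cells, averaged 10.26 ± 0.49 in activated Cre+ cells and 8.28 ± 0.08 at baseline, and 10.32 ± 0.29 in activated Cre- cells and 8.39 ± 0.17 at baseline (SD, n = 3 each). It rose by 1.98 and 1.93 on the log2 scale (limma adjusted p = 9.81e-05 in Cre+ cells and 0.000132 in Cre- cells). Hif1a, the oxygen-regulated subunit of HIF-1, rose by 1.21 in Cre+ cells and 1.29 in Cre- cells (adjusted p = 0.000416 and 0.000309). Txnip, which encodes a protein that restrains glucose uptake, was lower after activation by 5.74-fold in Cre+ cells and 5.43-fold in Cre- cells (limma adjusted p = 0.000905 in Cre+ cells and 0.00121 in Cre- cells).

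Other genes of glucose metabolism did not move one way. Of 48 further genes of glycolysis, fructose, galactose and pentose metabolism, 8 rose and 8 fell in Cre+ cells (median log2 change 0.07) and 8 rose and 6 fell in Cre- cells (median 0.00). These calls were 33.3% of the 48 in Cre+ cells, where 20.8% of all genes passed, and 29.2% in Cre- cells, where 18.6% did. Prps1, which turns ribose phosphate into the precursor of nucleotides, rose by 1.83 in Cre+ cells and 1.06 in Cre- cells. H6pd, the endoplasmic reticulum enzyme related to G6pdx, fell (log2 changes -0.70 and -0.50), as did Pfkfb2, a gene of the same family as Pfkfb3 (-0.92 and -0.54). Slc2a6, a glucose transporter family gene, rose by 1.30 in Cre+ cells and 1.47 in Cre- cells, and Bsg, the chaperone of the lactate transporters, by 0.55 and 0.61.

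Of 20 genes known as HIF targets outside the pathway, 6 rose and 1 fell in Cre+ cells (median 0.13) and 8 rose and 1 fell in Cre- cells (median 0.46). Vegfa, a growth factor for vessels, rose by 1.61 in Cre+ cells and 2.32 in Cre- cells, Adm, a vasodilator peptide gene, by 1.92 and 1.05, and Ero1a, an oxidase of the endoplasmic reticulum, by 1.15 and 1.08. The member that fell in both was Ddit4, an inhibitor of mTOR signalling (log2 changes -2.03 and -2.33). Of 19 citric acid cycle genes, 7 rose and none fell in Cre+ cells (median 0.40) and 5 rose and none fell in Cre- cells (median 0.33). These included Cs, the citrate synthase gene (0.73 in Cre+ cells and 0.61 in Cre- cells), Idh3a, an isocitrate dehydrogenase subunit (1.39 and 1.09), and Mdh2, the mitochondrial malate dehydrogenase (0.69 and 0.55). These medians stand beside -0.02 for all genes in Cre+ cells and -0.004 in Cre- cells. In Cre+ cells 35% of the HIF targets and 36.8% of the citric acid cycle genes passed, where 20.8% of all genes did. In Cre- cells 45% and 26.3% passed, where 18.6% of all genes did. Of the genes with a mean of at least 5, fitted alone, 46.3% passed in Cre+ cells and 43.9% in Cre- cells. These lists were not matched to genes of like level.

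On activated array 3, 15 of 35 members were at their highest of the group in both genotypes, among them Hk2 and Slc16a1, and 6 were at their lowest (Pfkp, Aldoc, Slc16a3, Pdk1, Pdk2 and Pfkfb4). On baseline array 3, 2 of 35 members were at their highest in both genotypes and 12 at their lowest. The same shares over all genes were not counted, so these counts do not set the members apart from other genes. Without both activated arrays numbered 3, 18 members passed in Cre+ cells, 16 higher and 2 lower, and 17 in Cre- cells, 15 higher and 2 lower, where 21.5% of all genes passed in Cre+ cells and 16.7% in Cre- cells. Gpi1 then lost its call in both genotypes (0.33 in Cre+ cells and 0.28 in Cre- cells) and Slc2a3 in Cre+ cells (-0.28), while Slc2a3 passed in Cre- cells (-0.37, adjusted p = 0.0396). Hk2 then rose by 3.25 in Cre+ cells and 2.81 in Cre- cells (log2). The part of dividing cells in the remaining changes was not tested.

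Between genotypes no member passed in either state. At baseline 0 of 35 members differed between Cre+ and Cre- cells (limma, adjusted p under 0.05), where 0.564% of all genes did, and 1 had an unadjusted p under 0.05, where 6.9% of all genes did. All 3 Cre+ arrays were above all 3 Cre- arrays for 2 members, Pdk2 and Pgls (8.82% of all genes), and below them for 5, Slc2a3, Pfkp, Eno2, Pdk1 and Pgd (7.43% of all genes). The median difference of the members was -0.075, beside 0.002 for all genes. The one with the unadjusted p was Pdk1, which at baseline was 1.53-fold lower in Cre+ cells (log2 difference -0.61, SE 0.20, adjusted p = 0.388). For 33 of the 35 members the 95% interval of the baseline difference lay within 2-fold in either direction, except for Pgam1 and Pdk1.

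**Figure D4:**
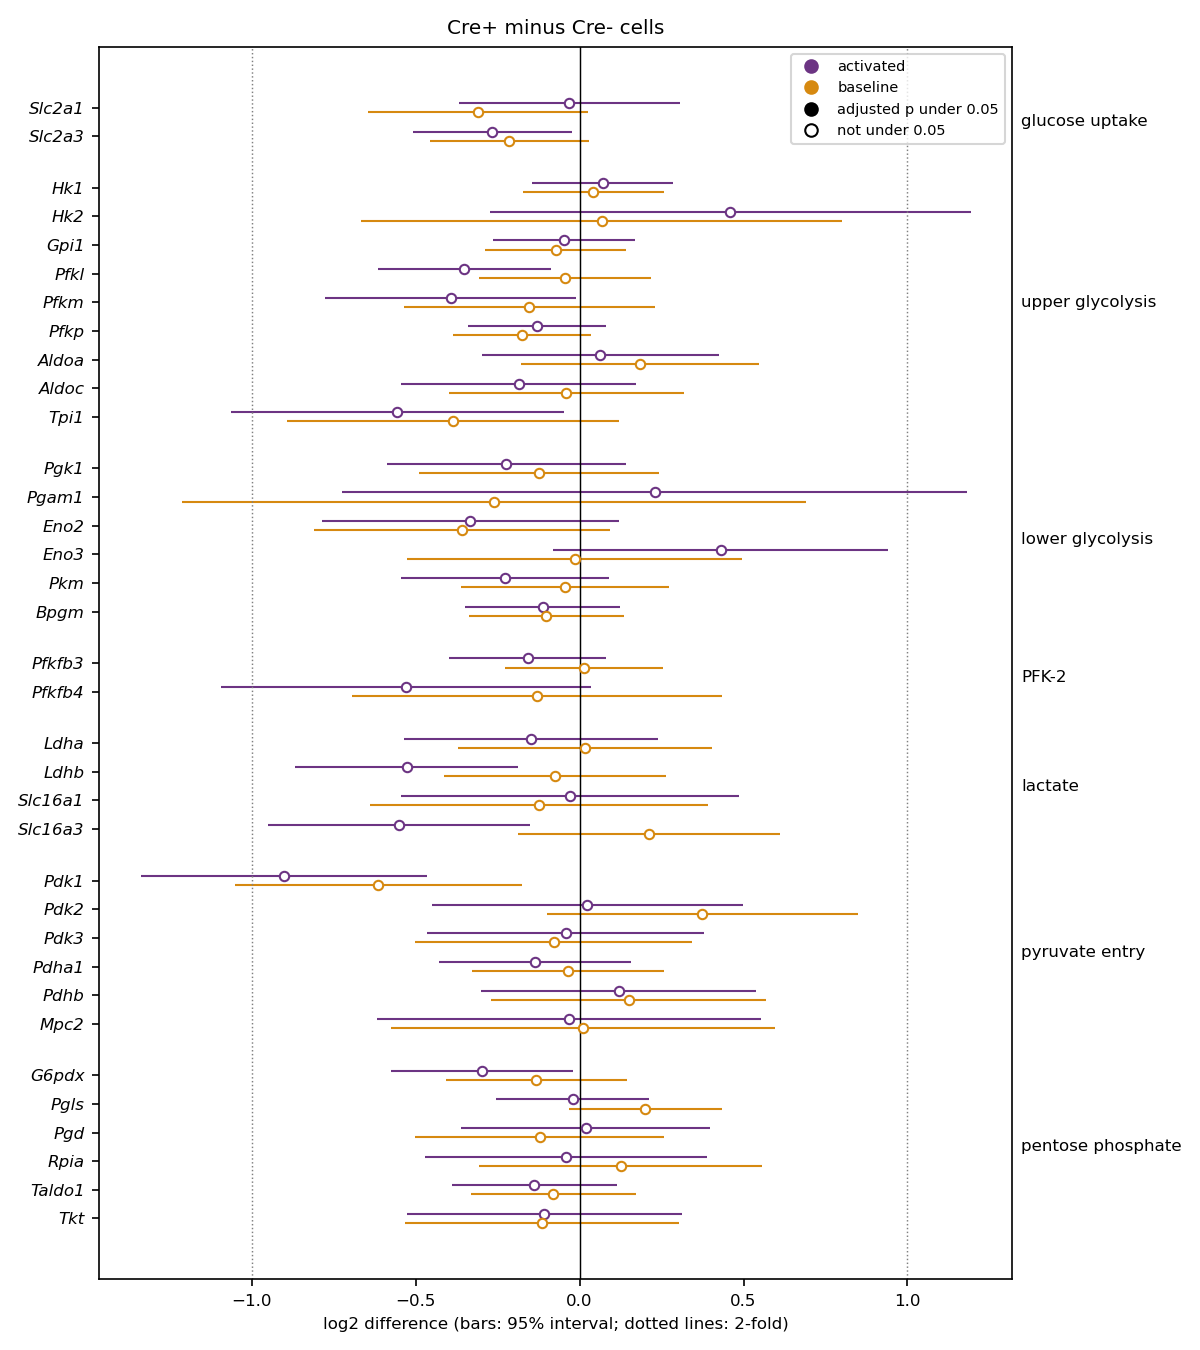
Log2 difference between Cre+ and Cre- cells for each of the 35 members after activation and at baseline, with 95% confidence intervals from limma (3 arrays per group). No member passed at an adjusted p under 0.05, and Pdk1 lies farthest below 0 in both states, at -0.90 after activation and -0.61 at baseline.

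After activation 0 of 35 members passed between genotypes (limma, adjusted p under 0.05), where 0.746% of all genes did. Of the 35, 8 had an unadjusted p under 0.05 (22.9%, where 7.54% of all genes did): Slc2a3, Pfkl, Pfkm, Tpi1, Ldhb, Slc16a3, Pdk1 and G6pdx, each lower in Cre+ cells. All 3 Cre+ arrays were below all 3 Cre- arrays for 7 members (Pfkl, Pfkm, Tpi1, Ldhb, Pdk1, Pfkfb3 and G6pdx), as for 5.48% of all genes, and above them for none, as for 5.28% of all genes. The median difference of the members was -0.13, beside -0.01 for all genes. The B cell and cell cycle means given above overlapped between the activated genotypes. None of the 12 B cell markers passed there, but all 12 differences were positive (median 0.81), and their part in the members' differences was not tested.

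Pdk1 came closest. It was 1.87-fold lower in Cre+ cells after activation, with 7.03, 7.36 and 6.64 in Cre+ cells against 8.15, 7.95 and 7.63 in Cre- cells (log2 difference -0.90, SE 0.20, limma adjusted p = 0.0791). It passed without Cre+ activated array 2 (-1.08, adjusted p = 0.0326) and without Cre- activated array 3 (-1.04, adjusted p = 0.0357). Ldhb had 5.46, 5.73 and 5.29 in activated Cre+ cells, against 5.82, 6.03 and 6.21 in activated Cre- cells, a difference of -0.53 (SE 0.15) that did not pass (adjusted p = 0.238). Slc16a3 differed by -0.55 (SE 0.18, adjusted p = 0.344), and it passed without Cre+ activated array 2, its highest Cre+ activated array (-0.80, adjusted p = 0.0147). Pfkl differed by -0.35 and Tpi1 by -0.56 (adjusted p = 0.378 and 0.574).

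For 30 of the 35 members the 95% interval of the activated difference lay within 2-fold in either direction, except for Hk2, Tpi1, Pgam1, Pdk1 and Pfkfb4. Hk2 itself was 1.38-fold higher in Cre+ cells with an SE of 0.34 on the log2 scale (adjusted p = 0.911), and Slc2a1 differed by -0.03 (SE 0.15, adjusted p = 1). Among the 48 further genes of glucose metabolism 1 passed after activation, Galm, which converts galactose for its entry to the pathway, and it was higher in Cre+ cells (log2 difference 1.14, SE 0.20, adjusted p = 0.0257). In a fit of the activated arrays alone its adjusted p was 0.339.

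The activation responses of the genotypes were compared directly as the Cre+ response minus the Cre- response. No member passed (limma, 0 of 35, where 0.00842% of all genes, 2 in number, passed), and 1 had an unadjusted p under 0.05 (4.68% of all genes), which was Slc16a3 as given above. For 29 of the 35 members the 95% interval of this difference lay within 2-fold in either direction. The differences in the 2 activation comparisons share no arrays, while each shares arrays with the genotype comparisons. All p-values came from the same fit of the 12 arrays, with the spread of each gene estimated over the 4 groups. The activation calls in the 2 genotypes are therefore not independent of each other.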

How the data were processed

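RNA of splenic CD4+ T cells was hybridised to 12 single-colour Mouse Gene 2.0 ST arrays, 3 in each of 4 groups. The authors deposited log2 values made by RMA with affy 1.36.1 in R 2.15.1, per the submitters' processing notes; neither the chip definition nor a genome build is named there. No detection call came with the values, and RMA shrinks differences of dim rows.

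Of 25206 rows, 23185 were named by the platform annotation and 555 by the RefSeq gene whose ID equals the number in the row's name (Gpi1, Mpc2 and G6pdx among the members), and 1466 without a name were left out. All 23740 named genes were fitted with limma 3.58.1 (R 4.3.3; lmFit, eBayes, 4 group means, 8 residual and 3.54 prior degrees of freedom), two-sided, with Benjamini-Hochberg adjustment over all of them and a threshold of 0.05. On simulated data for activation in Cre- cells over 23740 genes, 68 of 100 genes planted at 2-fold and 100 of 100 at 4-fold were recovered, with 7 false calls. The simulated noise was independent between genes and arrays, and only the planted genes changed. Those settings differ from these data, so the figures check the code and do not give the recovery here. The number of arrays limits the precision.

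The members and lists were chosen with earlier results of these data known, and none is independent evidence. All members, Ikzf1, Myc, Hif1a, Txnip and the markers of cell types and the cell cycle may be named at any value. Of the other metabolic lists, up to 6 genes per comparison that passed with the smallest adjusted p may be named. Where fewer than 2 passed, the 2 with the smallest p may be named. Alternatives were array weights, robust moderation with a variance trend, the replicate number as a block, a mean of at least 5, all rows of the table, median centring, quantile normalization, sex as a covariate (Xist against Eif2s3y), only the arrays compared, both activated arrays numbered 3 left out, and each array left out in turn. Same-numbered arrays of different groups correlated over 0.1 in their deviations from the group means in 5 of 18 pairs (-0.096 to 0.727). The highest were between the activated arrays of the 2 genotypes, 0.727 for number 3 and 0.574 for number 2, against -0.039 for number 1. The labels state no pairing, so the main fit did not pair the samples, and the replicate number as a block was run as an alternative.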

Additional observations from a re-analysis of the deposited data

How the results depend on the processing

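Of the 17 members called on activation in Cre- cells, 16 stayed called under every alternative run (all but Gpi1), and so did 15 of the 20 called in Cre+ cells (all but Slc2a3, Gpi1, Ldha, Pdk2 and Pgd). For Aldoa, Pgk1 and Eno2 this covers 21 alternatives, because the fit with a mean of at least 5 left out their rows. No called member value changed sign or moved over 1.5 times. Leaving out 1 array gave 15 to 21 members called in Cre+ cells, 16 to 20 in Cre- cells, 0 to 2 between genotypes after activation, and 0 to 0 at baseline and for the difference of responses. Array weights, which count discordant arrays less, gave 26 members called on activation in Cre+ cells, where 36.2% of all genes were called. Pgam1, Eno3, Pdhb, Mpc2 and Rpia were gained as higher and Ldhb as lower. With these weights 9 members were called between genotypes after activation, where 11.2% of all genes were called. Hk2, Pgam1 and Eno3 were higher and Pfkl, Eno2, Ldhb, Slc16a3, Pdk1 and Pfkfb4 lower in Cre+ cells. For the difference of responses 1 member was called (Slc16a3, -1.05, limma adjusted p = 0.0227), where 0.661% of all genes were. The cause was not tested. With the replicate number as a block, 20 members were called in Cre+ cells (22.1% of all genes), 19 in Cre- cells (20.3% of all genes; Pgd and Rpia were gained) and 0 in the other comparisons, and 8 of 12 arrays correlated best with arrays of their own number.

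Over all genes, calls moved over 1.5 times in these cases, the alternatives that leave out 1 array aside. Array weights gave 8600 on activation in Cre+ cells, against 4942, 330 at baseline between genotypes, against 134, 2662 after activation, against 177, and 157 for the difference of responses, against 2. The baseline count was 88 with a mean of at least 5, 261 with only the arrays compared and 276 without both activated arrays numbered 3. The activated count was 117 with sex as a covariate and 11 with only the arrays compared. The difference of responses had 4 with the block, 0 with a mean of at least 5, 4 with sex as a covariate and 9 without both activated arrays numbered 3. Leaving out 1 array gave 3246 to 6092 on activation in Cre+ cells, 2951 to 4865 in Cre- cells, 55 to 207 at baseline between genotypes, 76 to 308 after activation and 2 to 26 for the difference of responses. With sex as a covariate 16 members were called on activation in each genotype (17.9% of all genes in Cre+ cells and 15.7% in Cre- cells), without Gpi1 in either and without Slc2a3, Ldha and Pdk2 in Cre+ cells (adjusted p 0.050 to 0.061). Median centring ended the call of Slc2a3 (-0.32, adjusted p = 0.0707), array weights that of Gpi1 in Cre- cells (0.25, adjusted p = 0.0506), and a fit of only the arrays compared that of Gpi1 in both genotypes and of Slc2a3. Xist stood above Eif2s3y on 1 of 3 activated Cre+, 2 of 3 activated Cre-, 2 of 3 baseline Cre+ and 1 of 3 baseline Cre- arrays, so both patterns occurred in every group, and 4 members are X-linked. Rows below the array median on most arrays, Aldoa and Pgam1, limit what could be measured.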
